A study of Mus musculus with 121 samples.

Results

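Mesenchymal identity was described here by 8 genes measured in 6 transplanted mouse tumours: Pdgfra, Pdgfrb, Twist1, Snai2, Zeb1, Zeb2, Vim and Cdh2. The genes were chosen by name, out of 18069 genes with a named probe on the arrays, and 7 of the 8 had a probe that could be tested. The tumours were a radiation-induced fibrosarcoma of the C3H mouse (rif below), the spontaneous fibrosarcoma nfsa, the spontaneous mammary carcinomas mmca and mca4 and the spontaneous squamous cell carcinomas scc7 and nrs1, with C3H/He given as the origin of the spontaneous tumours. They grew in the hind legs of male C3H/HeMs mice, whose age is not given in the labels, and received 1 local dose. The gamma-ray experiment held 81 arrays in 34 groups. Its rif, nfsa, mmca and mca4 tumours were sampled at day 1 after 0, 30, 50 or 70 Gy, and later after 30 or 50 Gy (rif at days 8, 16 and 22, nfsa at days 4 and 9, mmca at days 9 and 19, mca4 at days 11, 25 and 41). Unirradiated mmca was also sampled at day 9, while scc7 was sampled at days 8, 23 and 35 and nrs1 at days 8 and 15 after irradiation, with no unirradiated arrays of either analysed here. The carbon-ion experiment held 40 arrays in 20 groups after 30 Gy: mmca and mca4 unirradiated, at 6 hours and at days 1, 3, 5 and 20, rif, nfsa and nrs1 at days 5 and 20, and scc7 at days 5 and 42. Each group had 2 or 3 arrays, and the labels do not say whether these were separate animals, so p-values may measure technical spread only.

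Epithelial cells are held in sheets by E-cadherin (Cdh1) and other junction proteins, whereas mesenchymal cells such as fibroblasts lack these junctions and carry vimentin, N-cadherin and receptors for platelet-derived growth factor (PDGF). In an epithelial-mesenchymal transition (EMT), carcinoma cells shift toward the mesenchymal state, and the repressors encoded by Snai2, Zeb1, Zeb2 and, partly through other factors, Twist1 switch off epithelial genes. The zinc fingers of the Snai and Zeb proteins bind E-box motifs of the form CAGGTG (read as CACCTG on the other strand), which are known from the promoters of epithelial genes. Tumour tissue also holds host fibroblasts, macrophages, vessels and, in a leg, muscle, and several of these cell types express the same genes. In such bulk RNA, fewer cells of a type and less RNA per cell cannot be told apart.

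Promoters of the members and of epithelial genes are shown because the repressors among the members act through this motif. In the RefSeq promoter table of build GRCm38.p6, the 250 bases before each start were searched for CAGGTG or CACCTG, which covers both strands. The motif was in 17.2% of all 32851 promoters, in 10 of the 15 promoters of the matched epithelial identity genes (66.7%), and in none of the 7 promoters of the 4 matched members. Counted by gene, 9 of the 12 matched epithelial identity genes (75%) held it in at least 1 promoter. A match is a description of these letters and not evidence of binding. Epcam, which encodes an epithelial adhesion molecule, held the motif 187 and 19 bases before its start. Rab25, which encodes an epithelial trafficking GTPase, held it 64 and 53 bases before its start. The sequences below run 5′ to 3′ on the gene's strand, with the motif in capitals. Pdgfra and Vim, the members that separated the tumours without overlap, are shown beside them and had no motif in the window.
Epcam, chr17:87635729-87635978, plus strand: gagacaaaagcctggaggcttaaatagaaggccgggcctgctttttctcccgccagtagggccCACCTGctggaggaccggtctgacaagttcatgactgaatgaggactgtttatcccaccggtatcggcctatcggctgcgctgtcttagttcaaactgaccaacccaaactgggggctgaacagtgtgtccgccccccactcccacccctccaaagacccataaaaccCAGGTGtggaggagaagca
Rab25, chr3:88548280-88548529, minus strand: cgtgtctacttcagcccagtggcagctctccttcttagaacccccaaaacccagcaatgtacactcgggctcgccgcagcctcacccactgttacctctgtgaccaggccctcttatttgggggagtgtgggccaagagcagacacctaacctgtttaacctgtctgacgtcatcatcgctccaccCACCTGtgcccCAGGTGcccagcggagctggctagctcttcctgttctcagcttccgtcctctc
Pdgfra, chr5:75152001-75152250, plus strand: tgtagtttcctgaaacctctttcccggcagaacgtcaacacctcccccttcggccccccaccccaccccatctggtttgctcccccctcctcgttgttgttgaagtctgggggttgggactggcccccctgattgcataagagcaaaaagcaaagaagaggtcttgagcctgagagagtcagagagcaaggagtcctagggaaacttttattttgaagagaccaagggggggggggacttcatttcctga
Vim, chr2:13574061-13574310, plus strand: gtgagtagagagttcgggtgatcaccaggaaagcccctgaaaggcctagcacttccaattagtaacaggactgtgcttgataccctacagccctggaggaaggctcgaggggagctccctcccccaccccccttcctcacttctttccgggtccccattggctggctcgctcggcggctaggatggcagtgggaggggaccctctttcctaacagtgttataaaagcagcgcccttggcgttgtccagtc

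Levels below are log2 of the deposited array intensity, so a difference of 1 is a 2-fold change, and errors are standard errors (SE) of the limma model unless named otherwise. A gene was called changed at a Benjamini-Hochberg adjusted p under 0.05 over all genes tested. Because probes differ in brightness, levels are compared between samples and not between genes. The levels of Vim lay at the 99.15th percentile of all covered probes and those of Pdgfra at the 88.8th. Cdh2, the gene of N-cadherin, had a value on 67.77% of arrays only, 82 in all, of which 15 were at or below the floor, so it was not tested. Its highest value was -0.99, against -2.98 for the floor, and Cdh2 was thus dim in every tumour at this probe.

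Several facts of the arrays touch every result below. Over 8689 genes with complete values, pairs of arrays of a group correlated with r of 0.964 to 0.998. Within groups, however, the mean level of the skeletal muscle markers spanned a median of 0.046 among gamma day 1 pairs and 0.054 among carbon pairs, against 2.87 within the later gamma groups. For Pdgfra the median span within a group was 0.089, 0.128 and 0.536 in the same sets, so later gamma groups were less tight than the others. The model gave each gene the same spread in all groups. Its errors and p-values can thus be too small for later gamma groups and too large for the others. Labels and markers disagreed in scc7: Krt5 and Krt14, keratins that define squamous epithelium, lay at -2.02 to -1.34 and -2.34 to -1.75 on its gamma arrays, against 8.20 to 8.57 and 8.23 to 8.53 in nrs1. Epcam lay between -1.15 and -0.41 on the scc7 arrays of the carbon experiment as well. Carbon arrays labelled mca4 resembled gamma mmca (r = 0.914 over 8689 genes) more than gamma mca4 (r = 0.855), and comparisons that use them are given with and without them where that is possible.

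The 6 tumours fell into 2 separate clouds by Pdgfra, the receptor for PDGF-A and other PDGF chains. Ranges and medians by tumour, here and below, pool its doses and days. For scc7 and nrs1 the gamma arrays were all irradiated and of day 8 or later. On gamma arrays Pdgfra ranged from 6.46 to 7.45 in rif (median 7.16), from 6.15 to 7.55 in nfsa (median 6.62) and from 6.09 to 6.82 in scc7 (median 6.59). The other carcinomas were lower, from 1.28 to 3.85 in mca4 (median 3.17), from 1.10 to 3.73 in mmca (median 1.70) and from 1.59 to 2.94 in nrs1 (median 2.44). No array of the high set overlapped with the low set in either experiment. Carbon arrays had medians of 7.08, 6.60 and 6.22 in rif, nfsa and scc7 and of 2.66, 2.75 and 3.18 in mca4, mmca and nrs1. Within each set the ranges of neighbouring tumours overlapped on gamma arrays. Epcam ran the other way, at 6.79 or more on every gamma array of mmca, mca4 and nrs1 and at 0.13 or less in rif, nfsa and scc7. Across the groups the means of Pdgfra and Epcam correlated with r = -0.97 among 34 gamma groups and r = -0.96 among 20 carbon groups, a description that rests on the gap between the clouds.

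**Figure D1:**
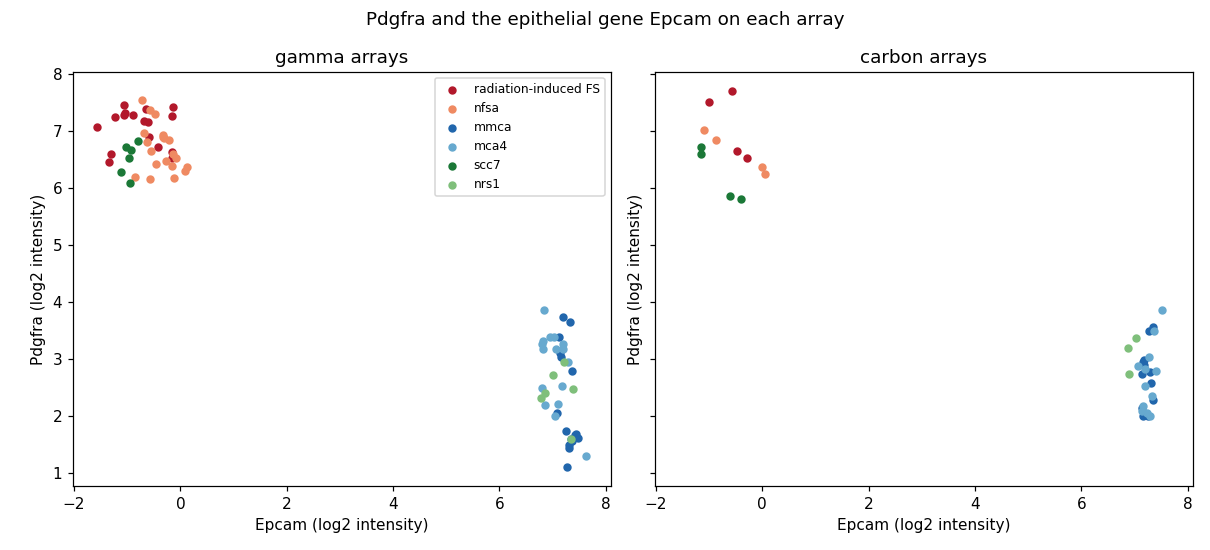
Log2 level of Pdgfra against log2 level of Epcam, 1 point per array, coloured by tumour, with gamma arrays in the left and carbon arrays in the right panel. The arrays of rif, nfsa and scc7 lie at high Pdgfra and low Epcam, those of mmca, mca4 and nrs1 at low Pdgfra and high Epcam, with no array between.

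Vim, which encodes the intermediate filament of mesenchymal cells, and Zeb2 divided the tumours in the same way. On gamma arrays Vim had medians of 8.41 in scc7, 8.25 in rif and 8.18 in nfsa, and of 6.29, 6.13 and 5.75 in mca4, mmca and nrs1. Its lowest value in the high tumours was 7.29 and its highest in the low tumours 6.85. By median scc7 was highest in both experiments (8.73 on carbon arrays). On gamma arrays the ranges overlapped, with nfsa reaching 8.82 and scc7 8.57. Zeb2 on gamma arrays had medians of 2.44, 2.26 and 1.95 in nfsa, scc7 and rif, and of 0.21, -0.24 and -0.34 in mca4, mmca and nrs1. Zeb2 overlapped between the sets: an irradiated mmca array reached 1.44, above the lowest rif array at 1.17. On carbon arrays it overlapped too, with 2.58 in mca4 and 2.29 in mmca at day 20 against a lowest value of 2.02 in scc7. The tests below use this probe, matched to AK033626. A dimmer probe of Zeb2, matched to AF033116, had a mean of -1.39, below the filter on dim probes at -1.08. It gave another sign, with a call at either probe, in 15 of 38 comparisons. Changes of sign without a call are not in this count. The 15 values are listed in the closing section, and some stand beside the main results.

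Snai2, the gene of the repressor Slug, had a different order. It was highest in nrs1, the tumour with the highest squamous keratins, at 5.11 to 5.59 on gamma arrays and 4.08 to 5.11 on carbon arrays, and no other tumour exceeded 3.73. The fibrosarcomas followed with gamma medians of 2.84 in nfsa and 2.50 in rif, whose ranges overlapped. In scc7, mca4 and mmca the medians were 0.51, 0.14 and -0.55, and their ranges overlapped. Thus the tumour with the highest Snai2 also had Cdh1 at 5.84 to 6.32 on gamma arrays, the highest of the 6.

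The probes for Zeb1, an E-box repressor related to Zeb2, gave different orders. The probe matched to NM_011546 was high in the tumours high in Pdgfra, with gamma medians of 4.84 in rif, 4.34 in scc7 and 3.57 in nfsa and of 1.89, 1.23 and 0.76 in mca4, mmca and nrs1. The sets overlapped on gamma arrays, where the lowest nfsa array was at 2.94 and the highest mca4 array at 2.99. The brighter probe, matched to AK041408 and used for the tests by the rule on brightness, placed nrs1 (4.08) beside nfsa (4.10), above rif (3.83) and scc7 (3.67). The group means of both probes correlated with r = 0.513 among gamma groups and 0.382 among carbon groups. Every Zeb1 result below is from the brighter probe unless the other is named. The value of the other stands beside some of them. Differences in sign with a call at either probe are listed in the closing section.

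Pdgfrb and Twist1 separated the tumours less. Pdgfrb, the PDGF-B receptor of pericytes and fibroblasts, had gamma medians of 4.86 in nfsa, 4.23 in rif, 3.52 in mca4, 3.45 in scc7, 3.03 in mmca and 1.76 in nrs1. Each tumour's range overlapped with that of its neighbour in this order. Twist1, a basic helix-loop-helix factor of mesoderm, had gamma medians between 3.70 and 4.55 in 5 tumours and 2.93 in nrs1. Its medians were 4.55 in nfsa and 4.48 in rif against 4.28 in mmca and 4.16 in mca4, with overlapping ranges. The share of variance between tumours was 93.8% for Pdgfra, 91.7% for Vim, 88.9% for Snai2, 83.1% for Zeb2, 78.9% for Pdgfrb, 67.7% for Zeb1 and 55% for Twist1 on gamma arrays. Over 8689 genes the median share was 48.2% and the 90th percentile 84.3%. These shares pool all doses and days of a tumour. On carbon arrays the share for Twist1 was 18%, against a median of 64%.

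**Figure D2:**
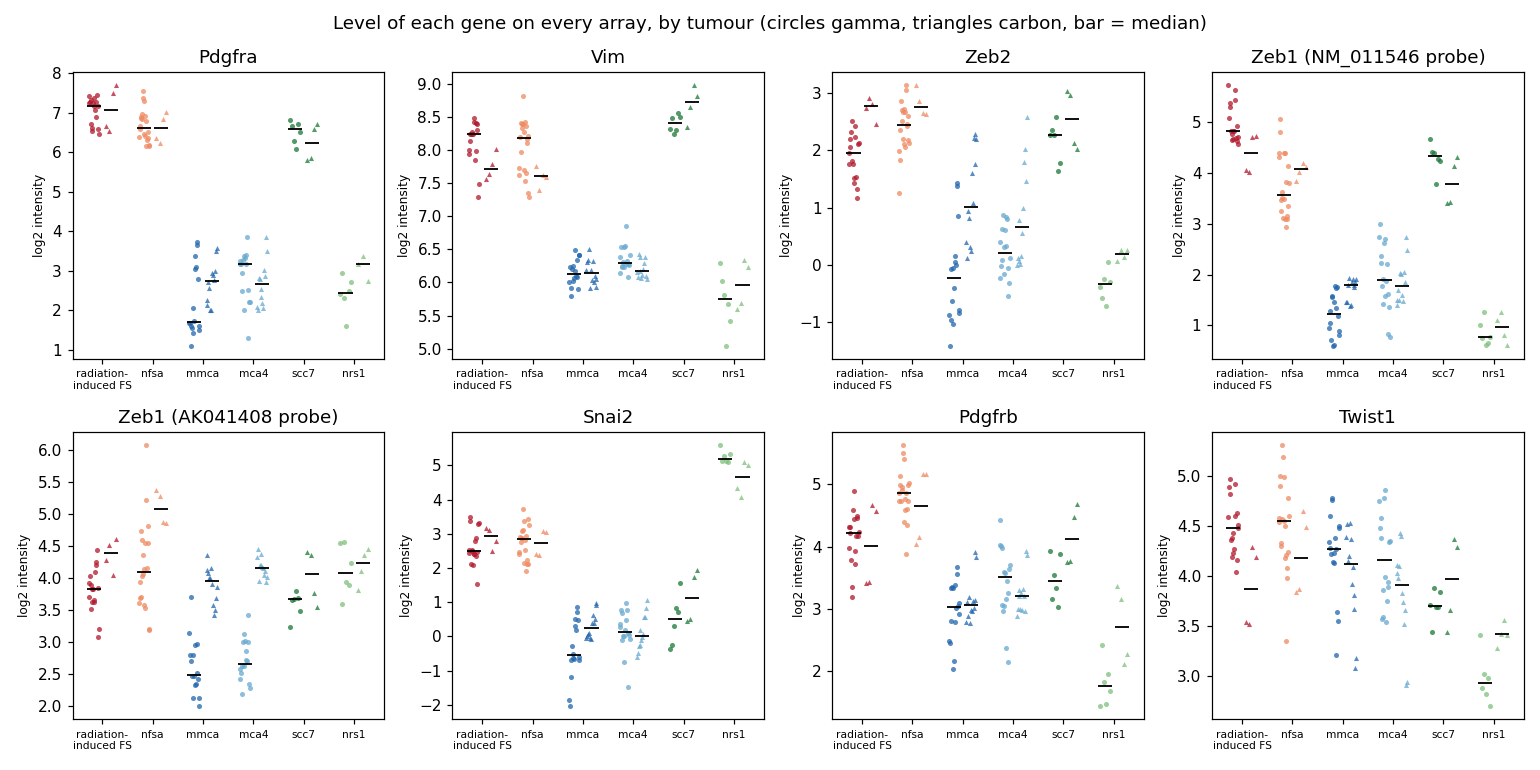
Log2 level of each tested member on every array, by tumour (circles gamma, triangles carbon, bars medians), with both Zeb1 probes. Pdgfra and Vim divide rif, nfsa and scc7 from the other tumours without overlap, Snai2 is highest in nrs1, and Twist1 overlaps between nearly all tumours.

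Unirradiated fibrosarcomas and mammary carcinomas were compared to show how the tumour types differed before any dose, and 6 of the 7 members were higher in the fibrosarcomas (4 arrays against 4, none lower). Across all 12885 genes tested 67.4% were called and 41.3% were higher, so most genes differed between these tumour types. Pdgfra was 7.42 and 7.25 in rif, 6.38 and 6.59 in nfsa, 1.67 and 1.67 in mmca and 3.17 and 3.25 in mca4. The fibrosarcomas were higher by 4.47 ± 0.21 (adjusted p = 1.47e-31, limma), with no overlap. Snai2 was 2.54 and 2.43 in rif, 2.47 and 2.41 in nfsa, -1.86 and -2.03 in mmca and 0.28 and 0.37 in mca4, a difference of 3.27 ± 0.19 (adjusted p = 2.1e-25, limma). The groups did not overlap, and mca4 lay above mmca. Zeb2 differed by 2.27 ± 0.19 (-0.07 at the dimmer probe), Vim by 1.64 ± 0.12 and Zeb1 by 1.00 ± 0.18 (2.96 ± 0.15 at the other probe). Pdgfrb differed by 1.12 ± 0.20, but the mca4 arrays at 4.43 and 4.03 overlapped with rif at 3.98 and 4.31. Twist1 did not pass, at 4.59 and 4.89 in rif and 4.35 and 4.61 in mmca, with a difference of 0.11 ± 0.11 (adjusted p = 0.399, limma).

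Other lists of genes moved in the same contrast. Of the epithelial identity genes all 11 tested were lower, with a median of -4.75, against 0.12 for all genes: Rab25 by 7.65, Epcam by 7.37 ± 0.12, the claudin gene Cldn3 by 5.96 and Cdh1 by 5.02 ± 0.17. Of the other mesenchymal surface and skeleton genes 9 of 10 were higher (median 2.85), among them S100a4, a calcium-binding protein of motile cells, by 3.93 and the receptor kinase gene Axl by 3.09. Of the other mesenchymal and EMT factors 3 of 7 were higher and 1 was lower (median 0.09), with Twist2 higher by 3.83 ± 0.15 and Prrx1 by 1.79 ± 0.14. Pdgfa, a ligand of the Pdgfra receptor, was higher by 2.50 ± 0.12. The fibroblast matrix markers were higher in 12 of 12 (median 2.34), the macrophage markers in 10 of 10 (median 1.64) and the skeletal muscle markers in 9 of 9 (median 2.87). The mean level of the fibroblast markers was 5.26 to 6.15 in the fibrosarcomas and 2.04 to 4.60 in the mammary carcinomas. Their part in the members' differences was not tested.

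Within the tumour types, unirradiated mmca and mca4 and unirradiated rif and nfsa were compared with each other. Between mmca and mca4 on gamma arrays 4 of 7 members were lower in mmca, where 51.8% of all genes were called and 28.4% lower. These were Snai2 by 2.27 ± 0.28, Pdgfrb by 1.75 ± 0.28, Pdgfra by 1.54 ± 0.29 and Zeb2 by 1.23 ± 0.27 (adjusted p from 1.57e-10 to 0.000109, limma). Pdgfrb was 2.49 and 2.45 in mmca and 4.43 and 4.03 in mca4, with no overlap. In the same arrays all 12 fibroblast matrix markers (median -2.19) and all 9 skeletal muscle markers (median -6.10) were lower in mmca. The muscle mean level was -0.89 to -0.76 in mmca and 4.85 to 5.02 in mca4, and its part in the members' differences was not tested. On unirradiated carbon arrays none of the 7 members differed between the arrays labelled mmca and mca4, with 2.71% of all genes called, and 1 (Twist1) had an unadjusted p under 0.05. Unirradiated rif lay above nfsa at the other Zeb1 probe (5.74 and 5.095 against 4.31 and 4.39). Between rif and nfsa Pdgfra was higher in rif by 0.85 ± 0.29 (adjusted p = 0.0133, limma) and Pdgfrb was lower by 0.66 ± 0.28 (adjusted p = 0.049, limma), 2 of 7 members where 45.5% of genes were called. Neither call held when single unirradiated arrays were left out, with adjusted p up to 0.0916 for Pdgfra and 0.271 for Pdgfrb.

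The squamous carcinomas scc7 and nrs1 differed from each other in nearly every member, in opposite directions. At day 8 after 30 Gy of gamma rays (2 arrays against 3) all 7 members were called, where 58.5% of genes were. Pdgfra was 6.82 and 6.66 in scc7 and 2.40, 2.94 and 2.30 in nrs1, higher in scc7 by 4.19 ± 0.27 (adjusted p = 1.88e-23, limma). Zeb2 was higher in scc7 by 2.72 ± 0.25, Vim by 2.36 ± 0.15, Pdgfrb by 1.65 ± 0.26 and Twist1 by 0.47 ± 0.15. Snai2 was -0.36 and -0.24 in scc7 and 5.59, 5.13 and 5.27 in nrs1, lower in scc7 by 5.63 ± 0.25 (adjusted p = 2.98e-32, limma). Zeb1 was lower in scc7 by 0.78 ± 0.23 at the brighter probe but higher by 3.54 ± 0.20 at the other. Without the array of replicate 1 of scc7 the calls of Twist1 (adjusted p = 0.123) and Zeb1 (adjusted p = 0.0924) were lost. Of the epithelial identity genes 13 of 14 were lower in scc7, Krt14 by 10.56, Krt5 by 10.09, Epcam by 7.82 and Cdh1 by 6.22. Macrophage markers were higher in 10 of 10 (median 2.37) and fibroblast matrix markers higher in 8 and lower in 3 of 12 (median 1.04).

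At day 5 after carbon ions the contrast between scc7 and nrs1 (2 arrays against 2) had 4 of 7 members called, where 56.8% of genes were. Vim was higher in scc7 by 2.86 ± 0.17, Zeb2 by 2.84 ± 0.27 and Pdgfra by 2.56 ± 0.29, and Snai2 was lower by 3.72 ± 0.28. Pdgfrb, Zeb1 and Twist1 did not pass, with differences of 0.50, 0.42 and 0.20. At the other Zeb1 probe scc7 was 3.40 and 3.43 and nrs1 1.11 and 1.26, with no overlap. Compared with all 4 carcinomas at that day, the fibrosarcomas were higher in 6 of 7 members, where 64.5% of genes were called and 31.3% higher. Pdgfra differed by 2.71 ± 0.18, Snai2 by 1.34 ± 0.17, Zeb2 by 1.15 ± 0.17, Vim by 0.96 ± 0.10, Zeb1 by 0.89 ± 0.15 and Pdgfrb by 0.47 ± 0.17. Pdgfrb missed the threshold without replicate 2 of nfsa (0.44, adjusted p = 0.0534, limma). Without the carbon arrays labelled mca4 the same 6 were called, with Pdgfra at 2.45. Without scc7 they were called too, with Pdgfra at 3.41 and Vim at 1.58. The squamous minus the mammary carcinomas gave 5 of 7 members higher, where 70.8% of genes were called and 42.5% higher, but the squamous tumours scc7 and nrs1 lay far apart, as given above. Pdgfrb (adjusted p = 0.0498) and Zeb1 (adjusted p = 0.0392) stood at the threshold there, and each lost its call on leaving out any of 7 of the 8 arrays in turn. Without the arrays labelled mca4 the call of Pdgfrb was lost (adjusted p = 0.112).

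Day 1 after gamma rays was compared with unirradiated arrays of the same tumour to show the early response. Snai2 and Zeb2 were the only members called in the mean of rif, nfsa, mmca and mca4 (24 arrays against 8), and both rose. Of all genes 59.4% were called, 24.8% higher. Snai2 rose by 0.69 ± 0.11 (adjusted p = 2.48e-07, limma) and Zeb2 by 0.37 ± 0.11 (adjusted p = 0.00286, limma, and -0.11 at the dimmer probe), whereas Pdgfra, Pdgfrb, Twist1 and Vim lay within 0.09 of no change. Zeb1 gave -0.21 ± 0.10 (adjusted p = 0.0736, limma). With the 4 tumours as the replicates neither call held (adjusted p = 0.18 for Snai2 and 0.164 for Zeb2), so the mean rests on the spread between arrays. Macrophage markers rose in 7 of 10 and fell in 1 (median 0.42), and fibroblast matrix markers rose in 4 of 12 (median 0.21).

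The tumours differed in their values at day 1. In mmca Snai2 went from -1.86 and -2.03 at 0 Gy to -0.27 and -0.52 at 30 Gy, 0.31 and 0.19 at 50 Gy and -0.59 and -0.70 at 70 Gy, and every irradiated array was above the unirradiated ones. The rise was 1.68 ± 0.23 (adjusted p = 1.4e-08, limma). Members called in mmca were 4 of 7, where 33.1% of genes were called: Pdgfrb and Zeb2 rose by 0.61 ± 0.23 and 0.62 ± 0.22, and Zeb1 fell by 0.74 ± 0.20 at the brighter probe. The other Zeb1 probe was higher, not lower, by 0.40 ± 0.18 (adjusted p = 0.0779, limma). Without single arrays the calls of Pdgfrb, Zeb1 and Zeb2 were lost (adjusted p up to 0.179, 0.13 and 0.448). Unirradiated mmca itself differed between days: Snai2 was -0.69 and -1.18 at day 9, higher than at day 1 by 1.01 ± 0.28 (adjusted p = 0.00491, limma), the only member called where 21.2% of genes were and 6.85% as higher. That call was lost on leaving out either of 2 arrays (adjusted p = 0.066 and 0.145). The array medians of unirradiated mmca also differed, with 1.314 and 1.373 at day 9 and 1.609 and 1.66 at day 1. Their part was not tested. In rif Snai2 went from 2.54 and 2.43 at 0 Gy to 3.50 and 3.38, 2.79 and 2.88, and 3.29 and 3.31 at the rising doses, with no overlap. It rose by 0.71 ± 0.23 (adjusted p = 0.00652, limma), 1 of 7 members where 50.9% of genes were called and 18.5% rose, and missed the threshold without replicate 2 of the unirradiated arrays (adjusted p = 0.0778). No member was called in nfsa, where 29% of genes were, or in mca4, where 42.8% were, and at an unadjusted p under 0.05 limma gave 1 in each (Zeb2 and Pdgfrb). The day 1 change of the fibrosarcomas minus that of the mammary carcinomas was called for no member, where 21.9% of genes were, and none had an unadjusted p under 0.05 in limma.

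Dose had no common order over the members. From 30 to 70 Gy at day 1, 4 of 7 members fell in the mean of the 4 tumours (8 arrays against 8), where 50.2% of genes were called and 26.5% lower. Pdgfra fell by 0.54 ± 0.15, Zeb1 by 0.42 ± 0.13 (-0.90 at the other probe), Vim by 0.33 ± 0.08 and Twist1 by 0.27 ± 0.08 (adjusted p from 0.000673 to 0.00398, limma). After quantile normalization Vim gave 0.18 instead, and with tumours as replicates none of the 4 passed. The arrays of these doses also differed as a whole. Array medians were 1.421 to 1.517 at 70 Gy and 1.571 to 1.715 at 30 Gy. The share of probes without a value was 10.38 to 11.41% at 70 Gy and 13.6 to 15.28% at 30 Gy. The part of these array differences in the members' falls was not tested. Pdgfra in rif was 7.42 and 7.25 at 0 Gy, 7.28 and 7.32 at 30 Gy, 7.07 and 7.28 at 50 Gy and 6.59 and 6.46 at 70 Gy, so the 70 Gy arrays were the low ones. In mca4 it was likewise 3.17 and 2.95 at 30 Gy and 2.19 and 2.21 at 70 Gy. In mmca, by contrast, Pdgfra was 1.55 and 1.43 at 30 Gy, 3.04 and 3.10 at 50 Gy and 1.59 and 1.49 at 70 Gy. Only the 50 Gy arrays of mmca stood apart, and their mean levels of fibroblast matrix markers (4.58) and skeletal muscle markers (3.29 to 3.31) were also the highest of the day 1 mmca groups. At 30 Gy these were 2.87 to 2.98 and 0.50 to 0.51, and at 70 Gy 3.46 to 3.48 and -0.22 to -0.20. Their part in the Pdgfra level was not tested.

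**Figure D3:**
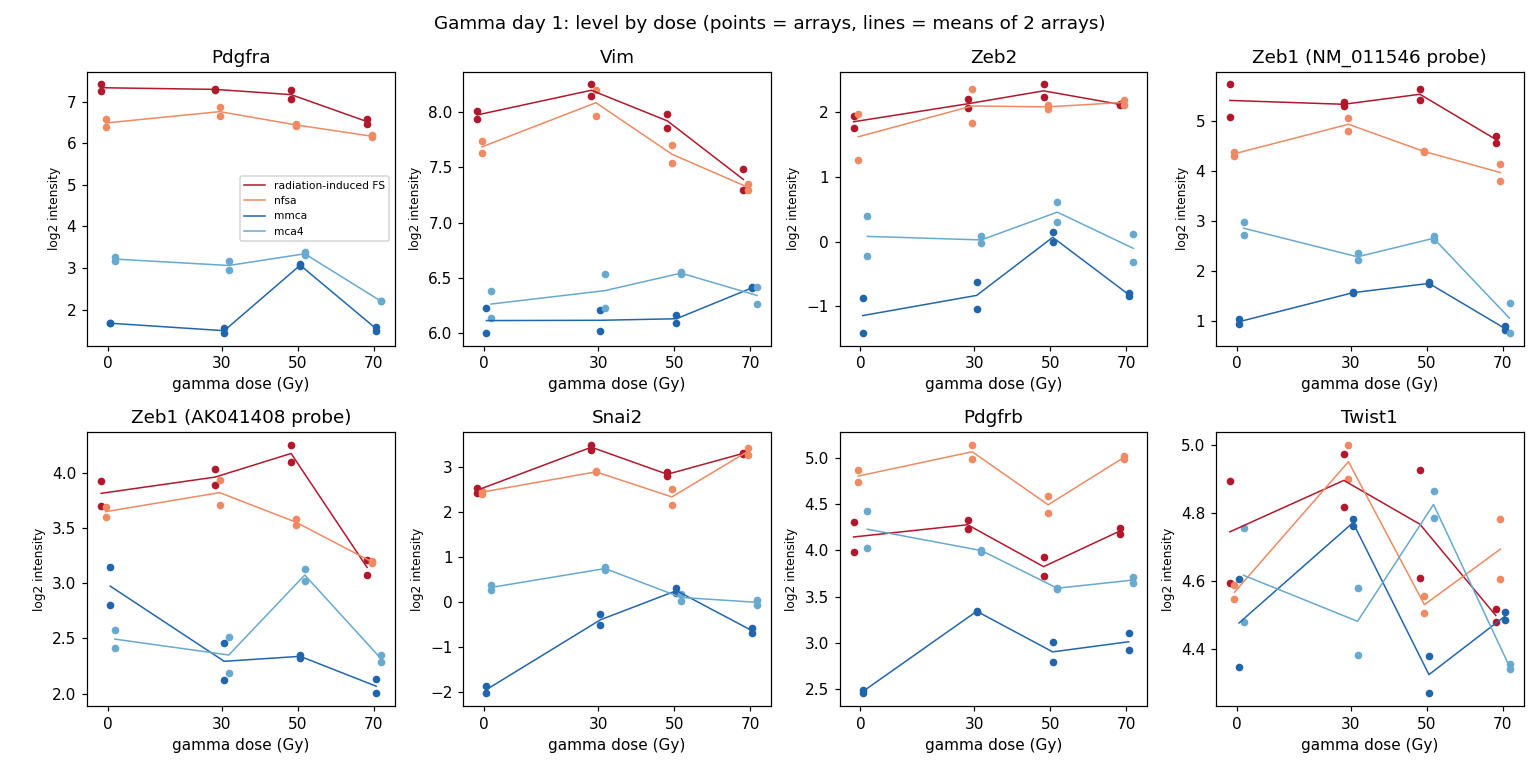
Log2 level of each member at day 1 after gamma rays against dose in Gy, 1 line per tumour through the means of 2 arrays, with the arrays as points. Snai2 of mmca lies above the unirradiated level at each dose, and Pdgfra of mmca is high at 50 Gy only.

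Days 8 to 25 after gamma rays were compared with unirradiated arrays to show the later response, and members moved in different directions. In the mean of 4 tumours (27 arrays against 8) 4 of 7 members rose and 2 fell, where 73.6% of genes were called. Zeb2 rose by 0.57 ± 0.11 (-0.18 at the dimmer probe), Pdgfra and Vim by 0.36 ± 0.12 and 0.36 ± 0.07 and Snai2 by 0.30 ± 0.11, while Twist1 fell by 0.43 ± 0.06 and Pdgfrb by 0.27 ± 0.11. Pdgfrb lost its call on leaving out any 1 of 6 arrays (adjusted p up to 0.145) and Snai2 without replicate 2 of unirradiated mmca (adjusted p = 0.0751), in limma. With the 4 tumours as the replicates none of these passed (adjusted p from 0.179 to 0.489), and the values of the tumours differ as given next. Macrophage markers rose in 9 of 10 (median 0.97) and T and NK cell markers in 5 of 5 (median 1.86), against a median of -0.03 for all genes.

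In mmca 4 members rose and 2 fell (6 arrays against 2), where 42.4% of genes were called. Pdgfra was 1.60 and 1.10 in unirradiated arrays of day 9, 2.05, 1.73 and 3.37 at day 9 after 30 Gy and 3.73, 3.65 and 2.79 at day 19 after 50 Gy. All irradiated arrays were above the unirradiated ones, and the rise was 1.54 ± 0.24 (adjusted p = 1.71e-07, limma). The unirradiated arrays had the lowest medians of the gamma experiment, 1.314 and 1.373, against 1.575 to 1.634 on the irradiated arrays. On them 9.99 and 10.42% of probes lacked a value, against 13.8 to 14.19%. The part of this array difference in the members' changes was not tested. Snai2 rose by 1.15 ± 0.23 and Zeb2 by 1.06 ± 0.22, with the day 19 arrays highest for both, at 0.48 to 0.87 and 0.84 to 1.44. Vim rose by 0.34 ± 0.14, Twist1 fell by 0.43 ± 0.13 and Zeb1 fell by 0.51 ± 0.20 at the brighter probe, while its other probe was higher by 0.16 ± 0.18. Without replicate 2 of the unirradiated arrays Zeb1 stood at -0.02 (adjusted p = 0.972) and Zeb2 at 0.62 (adjusted p = 0.0979). Vim and Zeb1 each lost their calls on leaving out any 1 of 4 of the 8 arrays (adjusted p from 0.0901 to 0.242 for Vim and from 0.0631 to 0.972 for Zeb1). Twist1 lost its call without replicate 1 of the unirradiated arrays (adjusted p = 0.0669). In the same contrast fibroblast matrix markers rose in 10 of 12 (median 1.55), macrophage markers in 9 of 10 (median 1.91) and skeletal muscle markers in 7 of 10 (median 2.29). Within the day 9 group the fibroblast mean ran from 2.93 to 5.04 and the muscle mean from 1.80 to 5.08, and their part in the members' changes was not tested. Pdgfa rose by 1.69 and Krt5 by 4.16, while Epcam changed by -0.15 and Cdh1 by 0.11 without passing.

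In nfsa at day 9 Zeb2, Zeb1 and Vim rose (6 arrays against 2), 3 of 7 members where 57.5% of genes were called and 24.5% rose. Zeb2 was 1.98 and 1.26 in unirradiated arrays, 2.21, 2.67 and 2.72 after 30 Gy and 2.43, 2.46 and 2.61 after 50 Gy, above the unirradiated arrays throughout. It rose by 0.89 ± 0.22 (adjusted p = 0.000437, limma), or by 0.53 (adjusted p = 0.126) without replicate 2 of the unirradiated arrays. Vim rose by 0.64 ± 0.14, but gave -0.09 after quantile normalization. Zeb1 rose by 0.70 ± 0.20 at the brighter probe and fell by 1.07 ± 0.18 at the other. At day 4 of nfsa 3 members rose and 1 fell, where 58.6% of genes were called. Zeb1 was 3.60 and 3.69 in unirradiated arrays, 4.73, 4.59 and 4.03 after 30 Gy and 4.54, 5.22 and 6.07 after 50 Gy, a rise of 1.22 ± 0.20 (-0.99 ± 0.18 at the other probe). Zeb2 rose by 1.21 ± 0.22 and Vim by 0.58 ± 0.14 (-0.07 after quantile normalization), and Twist1 fell by 0.41 ± 0.13, a call lost without replicate 1 of the unirradiated arrays (adjusted p = 0.0564). Without replicate 3 at 50 Gy Twist1 fell by 0.27 (adjusted p = 0.0419). At day 9 macrophage markers rose in 7 of 10 and fell in 1 (median 1.39), and T and NK cell markers rose in 5 of 5 (median 2.64).

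In rif Vim rose by 0.36 ± 0.13 and Twist1 fell by 0.44 ± 0.12 at days 8 to 22 (9 arrays against 2), 2 of 7 members where 67.7% of genes were called. Vim was 7.93 and 8.01 in unirradiated arrays and 8.24 to 8.49 in irradiated ones, with no overlap, but gave -0.04 after quantile normalization. Twist1 lost its call without replicate 2 of the unirradiated arrays (-0.29, adjusted p = 0.128) and Vim without replicate 1 (adjusted p = 0.105). In mca4 at days 11 and 25 Twist1 fell by 0.90 ± 0.13 (adjusted p = 1.01e-08, limma) and Pdgfrb by 1.21 ± 0.23 (adjusted p = 4.63e-06, limma), 2 of 7 members where 63.7% of genes were called and 35.1% fell. Twist1 was 4.75 and 4.48 in unirradiated mca4, 3.57, 3.59 and 3.86 at day 11 and 3.99, 3.54 and 3.75 at day 25, all below the unirradiated arrays. Pdgfrb was 4.43 and 4.03, then 3.06, 2.97 and 3.05, then 2.38, 3.16 and 3.46. The irradiated arrays were again all lower. Zeb2 in mca4 was at 0.47 ± 0.22 (adjusted p = 0.0581, limma), and passed on leaving out any 1 of 3 arrays (adjusted p from 0.0108 to 0.0285).

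**Figure D4:**
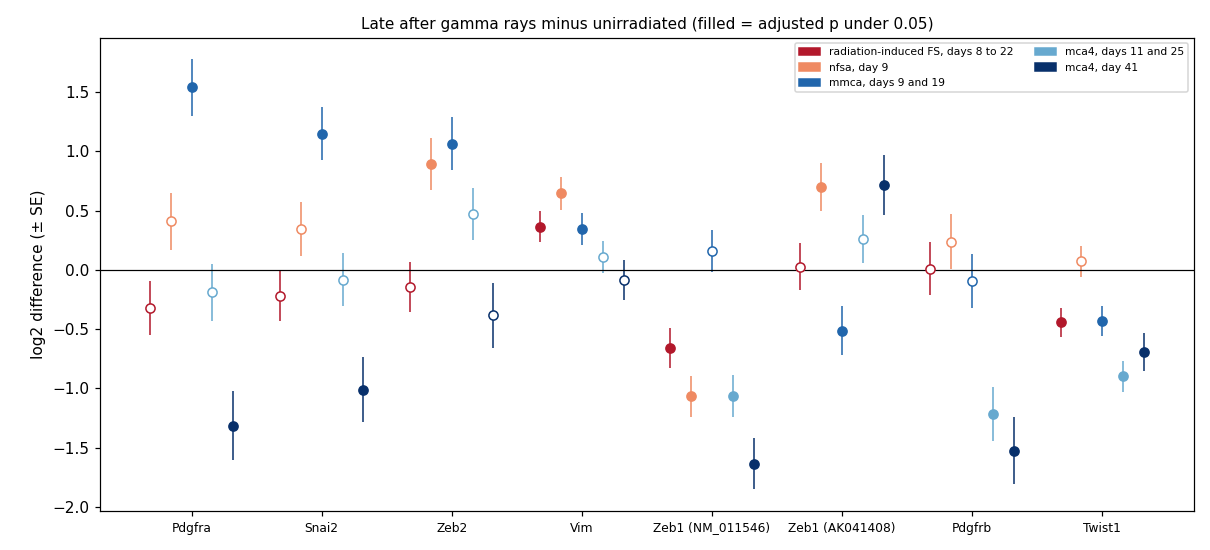
Log2 difference (irradiated minus unirradiated, bars SE) of each member late after gamma rays, by tumour, with day 41 of mca4 apart, and filled points for an adjusted p under 0.05. Pdgfra passes as higher in mmca and Zeb2 in nfsa and mmca, while Pdgfrb passes as lower in mca4 and Twist1 in rif, mmca and mca4.

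At day 41 after 50 Gy, when mca4 was sampled last (2 arrays), 4 of 7 members were lower and 1 was higher than in unirradiated mca4 of day 1, where 56.3% of genes were called. Pdgfrb was lower by 1.52 ± 0.28, Pdgfra by 1.31 ± 0.29, Snai2 by 1.01 ± 0.28 and Twist1 by 0.70 ± 0.16. Zeb1 was higher by 0.71 ± 0.25 and lower by 1.64 ± 0.22 at the other probe. The 2 arrays differed widely, with Pdgfra at 2.52 and 1.28, Snai2 at 0.10 and -1.48 and Pdgfrb at 3.25 and 2.15. Without replicate 2 Pdgfra stood at -0.70 (adjusted p = 0.0835), Snai2 at -0.22 (adjusted p = 0.571), Pdgfrb at -0.98 (adjusted p = 0.0115) and Zeb1 at 0.51 (adjusted p = 0.174). Fibroblast matrix markers were lower in 11 of 12 (median -1.97), and their mean level was 1.56 and 3.67 on the 2 arrays, against 4.50 to 4.60 unirradiated. Their part was not tested. Against day 25 at the same dose 3 of 7 members were lower, where 33.2% of genes were called and 15.4% lower: Pdgfra by 1.57 ± 0.27, Snai2 by 1.44 ± 0.25 and Zeb2 by 0.96 ± 0.25. Without replicate 2 Snai2 (adjusted p = 0.105) and Zeb2 (adjusted p = 0.105) lost their calls and Pdgfra stood at -0.95, while without replicate 1 Snai2 stood at -2.22 and Pdgfrb passed at -0.84 (adjusted p = 0.036). All 10 macrophage markers were lower (median -0.90). In scc7 no member differed between days 35 and 23, where 1.13% of genes were called and 2 members (Snai2 and Zeb2) had an unadjusted p under 0.05 in limma.

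After carbon ions the arrays labelled mmca and mca4 were followed from hour 6 to day 20, and members were called from days 3 and 5 on in the model of all arrays. Their unirradiated arrays were not matched in time, so irradiation and time of tumour growth cannot be told apart. At hour 6 no member was called in mmca or mca4, where 4.96% and 2.27% of genes were, and at day 1 none was called where 5.62% and 1.74% were. At an unadjusted p under 0.05 limma gave 1 member in each at hour 6 (Zeb2 in mmca, Pdgfra in mca4) and, at day 1, 0 in mmca and 2 in mca4 (Snai2 and Twist1). The early calls depended on the model: separate gamma and carbon models called 3 members at hour 6 of mmca (Pdgfra, Twist1 and Zeb2), 1 at hour 6 of mca4 (Pdgfra) and 3 at day 1 of mca4 (Pdgfra, Snai2 and Twist1), and array weights 2, 1 and 2. Pdgfra in mca4 was 2.09 and 1.99 unirradiated and 2.82 and 2.79 at hour 6, without overlap, a difference of 0.76 (adjusted p = 2.17e-06 in the separate limma model). At days 3 and 5 of mmca Zeb2 and Pdgfra rose by 1.41 ± 0.24 and 0.69 ± 0.25 and Twist1 and Zeb1 fell by 0.59 ± 0.14 and 0.64 ± 0.22, 4 of 7 members where 49.4% of genes were called. Zeb1 gave 0.37 at its other probe, and Pdgfra (adjusted p up to 0.124) and Zeb1 (0.135) lost their calls without single unirradiated arrays. At days 3 and 5 of mca4 Zeb2 and Snai2 rose by 1.28 ± 0.24 and 0.82 ± 0.24 and Twist1 fell by 0.39 ± 0.14, 3 of 7 members where 38.4% of genes were called. Snai2 (adjusted p = 0.0611) and Twist1 (adjusted p up to 0.154) lost their calls without single arrays.

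At day 20 the same 4 members rose and 1 fell in both, where 59.4% of genes were called in mmca and 60% in mca4. Zeb2 in mmca was 0.40 and 0.12 unirradiated, 1.60 and 1.08 at day 3, 2.22 and 1.77 at day 5 and 2.29 and 2.19 at day 20. Its rise to day 20 was 1.98 ± 0.27 (adjusted p = 2.83e-09, limma), and in mca4, from a mean of 0.06 to 1.46 and 2.58, it was 1.96 ± 0.27 (adjusted p = 3.8e-09, limma). All day 20 arrays were above the unirradiated ones, although the dimmer Zeb2 probe gave -0.08 and -0.67. Pdgfra went from 2.14 and 2.27 to 3.49 and 3.56 in mmca (1.33 ± 0.29) and from 2.09 and 1.99 to 3.85 and 3.48 in mca4 (1.62 ± 0.29). It stayed far below the 5.80 that was the lowest carbon value of the high tumours. Snai2 rose by 0.97 ± 0.28 in mmca and 1.48 ± 0.28 in mca4, and Pdgfrb by 0.92 ± 0.28 and 0.95 ± 0.28. In mmca Pdgfrb lost its call without replicate 1 of the unirradiated arrays (adjusted p = 0.0553).

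Twist1 moved the other way over the same days. It was 4.39 and 4.52 unirradiated, 3.92 and 4.09 at day 3, 3.67 and 3.81 at day 5 and 3.08 and 3.18 at day 20 in mmca, and 4.12 and 4.03, 3.83 and 3.74, 3.52 and 3.66, then 2.92 and 2.94 in mca4. It fell by 1.33 ± 0.16 in mmca (adjusted p = 4.61e-11, limma) and by 1.14 ± 0.16 in mca4 (adjusted p = 4.55e-09, limma) at day 20, with no overlap. Vim did not pass in either, at -0.25 ± 0.17 and -0.06 ± 0.17, nor did Zeb1 at -0.46 ± 0.25 and -0.41 ± 0.25 (1.16 ± 0.22 at the other probe in mca4). In mmca that other probe went from 1.455 and 1.467 unirradiated to 1.853 and 1.909 at day 20. Snai1, another E-box repressor of the family of Snai2, fell by 0.90 and 1.04. The change over days 3, 5 and 20 was not called different between mmca and mca4 for any member, where 0.518% of genes were called. None had an unadjusted p under 0.05 in limma, and the largest difference, for Snai2, was -0.39 ± 0.32.

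Marker lists rose over the same time course. At day 20 macrophage markers rose in 10 of 10 in mmca (median 1.86) and 9 of 10 in mca4 (median 2.42), against medians of -0.14 for all genes in both. The macrophage mean went from 3.43 to 3.52 in unirradiated mmca to 5.29 at day 20, and from 3.20 to 3.31 to 5.35 to 5.47 in mca4. Fibroblast matrix markers rose in 9 and 12 of 12 (medians 1.34 and 1.74) and skeletal muscle markers in 5 and 8 of 10 (medians 2.27 and 2.80). Of the 14 epithelial identity genes 8 rose and 3 fell in mmca and 7 rose and 2 fell in mca4, and the others did not pass. Epcam changed by 0.06 and 0.23 and Cdh1 by 0.19 and 0.35, none of which passed. Of the PDGF ligands Pdgfa rose by 2.28 in mmca and 1.81 in mca4 and Pdgfb by 1.60 and 1.07. Nt5e, which encodes the mesenchymal surface enzyme CD73, rose by 4.13 and 3.27, the macrophage lysozyme gene Lyz2 by 2.83 and 2.77 and the matrix gene Dcn by 1.98 and 3.03. The part of these cell types in the rise of Zeb2, Pdgfra, Pdgfrb and Snai2 was not tested.

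**Figure D5:**
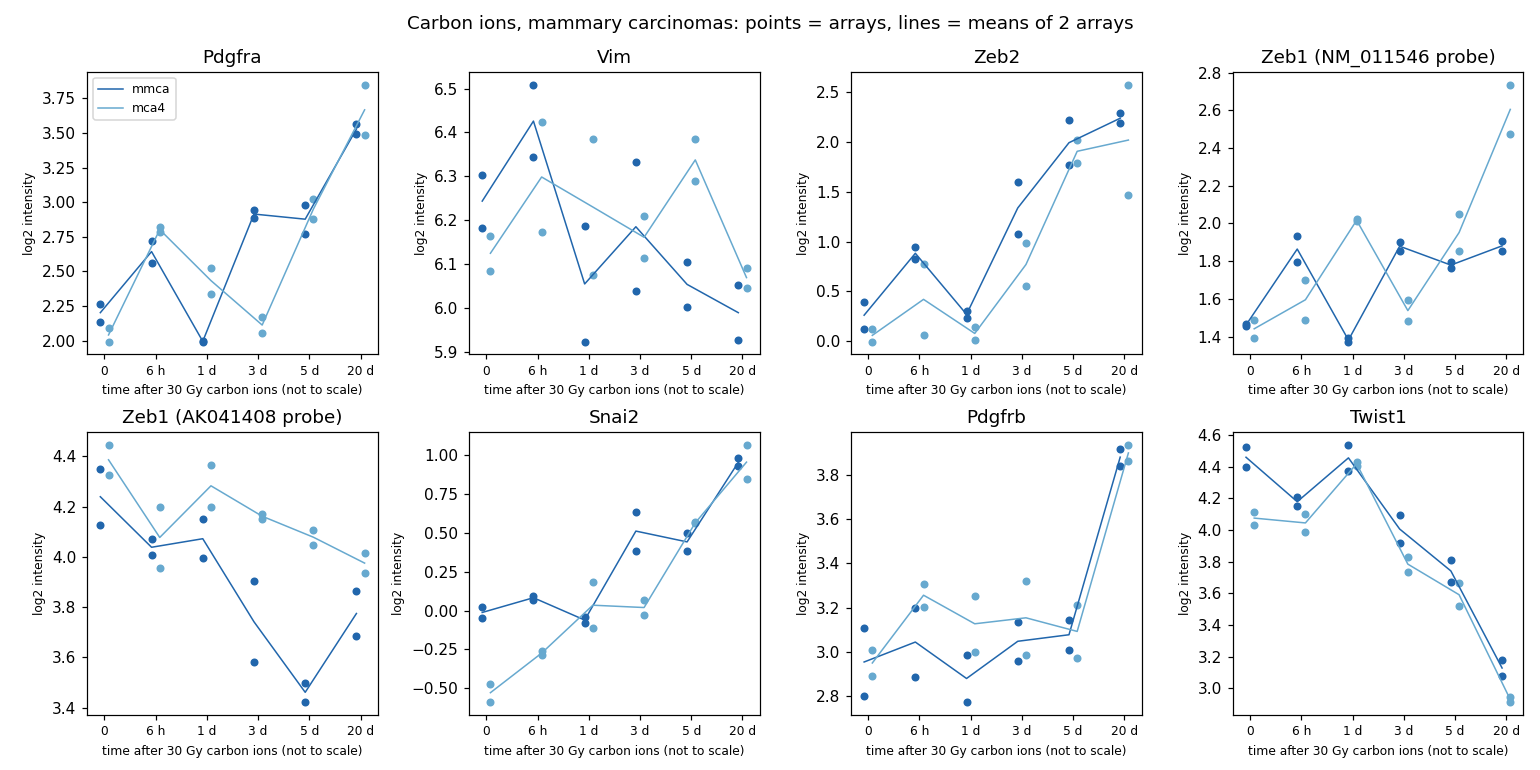
Log2 level of each member over the carbon-ion time course in the arrays labelled mmca and mca4, with points for arrays and lines through group means, and a time axis (unirradiated, 6 hours, days 1, 3, 5 and 20) that is not to scale. Means of Zeb2 and Pdgfra are highest and those of Twist1 lowest at day 20.

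For the other tumours no unirradiated carbon arrays were analysed here, so late and early days were compared with each other (2 arrays each). In both fibrosarcomas Pdgfrb and Twist1 were higher at day 20 than at day 5. In rif Pdgfrb went from 3.42 and 3.44 to 4.66 and 4.57 (1.19 ± 0.28), Pdgfra from 6.65 and 6.53 to 7.51 and 7.70 (1.02 ± 0.29) and Twist1 from 3.54 and 3.52 to 4.29 and 4.19 (0.71 ± 0.16). These were 3 of 7 members, where 44.9% of genes were called and 28% rose. In nfsa Pdgfrb went from 4.04 and 4.15 to 5.16 and 5.16 (1.06 ± 0.28) and Twist1 from 3.85 and 3.87 to 4.66 and 4.50 (0.72 ± 0.16), 2 of 7 members where 19.9% of genes were called and 12.1% rose. Other mesenchymal and EMT factors were higher in 6 of 7 in rif (median 1.00) and 5 of 7 in nfsa (median 0.62). In rif 5 of 5 T and NK cell markers, 5 of 7 endothelial and 6 of 10 macrophage markers were lower, and in nfsa all 7 endothelial markers.

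In nrs1 Snai2 and Vim were higher and Pdgfrb was lower at day 20, 3 of 7 members where 35.7% of genes were called. Pdgfrb went from 3.36 and 3.16 to 2.11 and 2.28 (-1.07 ± 0.28), Snai2 from 4.33 and 4.08 to 5.11 and 5.02 (0.86 ± 0.28) and Vim from 5.59 and 5.69 to 6.33 and 6.23 (0.64 ± 0.17). Snai2 lost its call without either of 2 arrays (adjusted p = 0.103 and 0.0688). Pdgfra had a value on 1 of the 2 day 20 arrays of nrs1, 2.73, against 3.18 and 3.36 at day 5 (adjusted p = 0.245). Fibroblast matrix markers were lower in 5 of 12 (median -0.92). In scc7 4 members were higher and 2 lower at day 42 than at day 5, where 32.5% of genes were called. Snai2 was higher by 1.36 ± 0.28, Pdgfra by 0.83 ± 0.29, Pdgfrb by 0.82 ± 0.28 and Twist1 by 0.78 ± 0.16, and Zeb2 was lower by 0.93 ± 0.27 and Zeb1 by 0.73 ± 0.25 (0.82 higher at the other probe). Leaving out single arrays ended the calls of Pdgfra, Pdgfrb and Zeb1 (adjusted p up to 0.116, 0.136 and 0.147), while Vim passed without replicate 2 of day 5 (adjusted p = 0.0394). Macrophage markers were lower in 6 of 10 and T and NK cell markers in 5 of 5.

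The members also differed in which other genes shared their pattern over the group means, taken as the smaller of the r over 34 gamma and 20 carbon groups among 12697 genes. Pdgfra was most like Tshz3 (r = 0.982 gamma, 0.986 carbon) and Scara3 (0.982, 0.981). Vim was most like Has1, a hyaluronan synthase gene (0.957, 0.957), and Ptpra (0.947, 0.95). Zeb2 was most like Slc9a9 (0.965, 0.945) and Vav1, a signalling gene of blood cells (0.949, 0.951). Snai2 was most like Naprt (0.943, 0.927) and Efemp1 (0.909, 0.939). Zeb1 at the brighter probe was most like Cyp2j12 (0.942, 0.865) and Zbtb14 (0.872, 0.825). The other Zeb1 probe correlated with Pdgfra at 0.935 and 0.957, against 0.681 and 0.403 for the brighter probe. Values for Pdgfrb, with Pea15a (0.873, 0.9) and Zfp449 (0.857, 0.873), and for Twist1, with Dzip3 (0.808, 0.834) and Metrn (0.808, 0.796), were lower. Between members, Pdgfra correlated with Vim at r = 0.947 and 0.874 and with Zeb2 at 0.939 and 0.821. These values describe groups that share tumours and arrays, and Pdgfra, Vim and Zeb2 had over 80% of their variance between tumours on gamma arrays.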

How the data were processed

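RNA from whole tumours was extracted with ISOGEN and RNeasy, labelled with Cy5 and hybridised to 1-colour CodeLink arrays, per the labels' protocols. The authors deposited linear intensity values, 1 per probe and array, and how these were normalized or background-corrected is not given in the sources used here. Array medians were 1.314 to 1.85 in the gamma and 1.035 to 1.073 in the carbon experiment, and 9.99 to 18.62% of probes lacked a value on gamma arrays, against 0.541 to 4.922% on carbon arrays. The number of arrays limits the precision. Intensities below 0.1269 (the 5th percentile of values above 0) were raised to that floor before taking log2, and gaps in the data were not filled.

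Of 36227 probes 21615 had 1 symbol in the platform annotation, 681 several and 13931 none, and 21487 matched the RefSeq table by Entrez identifier. Per gene, the brightest probe with values on at least 90% of arrays was used, and probes with a mean under the 20th percentile were left out, which left 12962 genes. limma 3.58.1 in R 4.3.3 fitted all arrays with 1 mean for each of 54 groups, which left 67 residual degrees of freedom, and with a variance trend. In each of 38 comparisons p-values were 2-sided and adjusted by Benjamini and Hochberg over all genes tested, with calls under 0.05. Members, lists and comparisons were chosen with earlier results of these data known, and a member was named in every comparison. Of the other lists up to 4 called genes with the largest change could be named. In a test on simulated data with these groups (8689 genes), the fit called 75% of genes changed by 0.5 log2 and 96% of those changed by 1 in the contrast of fibrosarcomas and mammary carcinomas, and 38% and 95% for carbon day 20 of mmca. False calls were 2.2% of calls for carbon day 20 of mmca and 7.9% for the gamma day 1 mean. Only 100 genes were changed by each amount, with independent noise of the same spread in all groups. Many more genes were called in the data, so these rates need not hold there.

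Replicate numbers were checked as pairs: the replicate differences of any 2 groups were correlated, and r exceeded 0.1 for each of the 15 combinations in carbon mca4 (0.14 to 0.376), for 80% in carbon mmca and for 0 to 66.7% in the gamma tumours. Gamma and carbon arrays were analysed apart within each comparison. Plots used matplotlib 3.10.9 (Python 3.11.15).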

Additional observations from a re-analysis of the deposited data

Results flagged for a closer look

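Member genes whose arrays all moved one way in one tumour and all the other way in another under the same contrast are given here, and the difference between the tumours was not tested. At day 1 after gamma rays Pdgfrb changed by 0.61 in mmca and by -0.47 in mca4. At day 1 after carbon ions Pdgfra changed by -0.21 in the arrays labelled mmca and by 0.39 in those labelled mca4, and neither was called. Between days 5 and 20 after carbon ions Pdgfra changed by 1.02 in rif and 0.62 in nfsa but by -0.54 in nrs1, where 1 array had a value at day 20. Pdgfrb changed by 1.19 and 1.06 in rif and nfsa and by -1.07 in nrs1. Snai2 changed by -0.50 in rif, by 0.67 in nfsa and by 0.86 in nrs1. Zeb1 changed by -0.46 in nfsa and by 0.45 in nrs1, and neither was called. Its other probe moved the opposite way in both. It went from 3.85 and 4.02 to 4.20 and 4.12 in nfsa, and from 1.11 and 1.26 to 0.80 and 0.62 in nrs1. No group had 4 or more arrays, so single outlying arrays were not looked for.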

How the results depend on the processing

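Over 38 comparisons and 7 members, 266 values were recomputed under each setting. A value was reversed if its sign changed with a call in either setting. Values without a call in both settings counted as kept whatever their sign. The numbers that kept their side of the threshold and were not reversed were 266 with the floor at the 10th percentile, 265 without the variance trend, 265 without the filter on dim probes, 264 in a table of all probes, 262 with the replicate block, 259 with the block within each tumour and beam, 251 after quantile normalization, 241 with missing values at the floor before it, 237 with array weights and 233 with separate gamma and carbon models. The settings with the block within each tumour, missing values at the floor, and carbon mca4 or scc7 arrays left out were chosen after seeing the data. Only Vim reversed under quantile normalization: 0.18 (0.30 with missing values at the floor) for 70 minus 30 Gy, -0.041 (-0.035) late in rif, -0.087 (-0.060) late in nfsa and -0.070 (-0.047) at day 4 of nfsa. The median of all genes moved by over 0.1 in 5 cases: quantile normalization took it from 0.116 to -0.0022 between unirradiated fibrosarcomas and mammary carcinomas and from 0.039 to -0.071 late in mmca, the table of all probes took it to -0.085 late in mmca and from -0.065 to 0.047 late in nfsa, and missing values at the floor took it from 0.134 to 0.033 for squamous minus mammary carcinomas. The cause of the reversals was not tested.

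Other probes reversed more. For Zeb1 the probe of NM_011546 gave -1.87 between unirradiated mmca and mca4, 3.54 between scc7 and nrs1 at gamma day 8, 0.40 in mmca and -0.86 in mca4 at gamma day 1, -0.66 in the late mean, -0.66 late in rif, -1.07 in nfsa, 0.16 in mmca and -1.07 in mca4, -0.99 at day 4 of nfsa, -1.64 at day 41 and -0.66 for day 41 minus 25 of mca4, and with carbon ions 0.37 at days 3 and 5 of mmca, 1.16 at day 20 of mca4, 0.68 for day 20 minus 5 of rif and 0.82 for day 42 minus 5 of scc7. For Zeb2 the probe of AF033116 gave -0.073 between unirradiated fibrosarcomas and mammary carcinomas, 0.35 between squamous and mammary carcinomas at carbon day 5, -0.0072 between scc7 and nrs1 at gamma day 8, -0.11 in the day 1 mean, -0.22 in mmca at day 1, -0.18 in the late mean, -0.039 in nfsa, -0.16 in mmca and -0.55 in mca4 late, -0.27 at day 4 of nfsa, 0.21 for day 41 minus 25, -0.36 and -0.080 at carbon days 3 and 5 and day 20 of mmca, and -0.12 and -0.67 in mca4. For Pdgfra the dim probe of BB221015 gave 1.02 at day 1 and 1.28 late in rif, and 0 at carbon day 20 of mca4, where both groups were at the floor. The cause was not tested.

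Counts of called members that moved by over 1.5 times are given with the reported count in brackets. With the 4 tumours as replicates they were 0 in the day 1 mean (2), 0 for 70 minus 30 Gy (4) and 0 in the late mean (6). Between rif and nfsa (2) the count was 1 with array weights, separate models, missing values at the floor, no dim filter, the replicate block, the block within tumours and the table of all probes. Array weights and separate models gave 2 and 2 between carbon mmca and mca4 (0), 2 and 3 at hour 6 of mmca (0), 1 and 1 at hour 6 of mca4 (0), 2 and 3 at day 1 of mca4 (0), and 5 and 5 for day 20 minus 5 of rif (3) and of nfsa (2). Separate models also gave 5 at days 3 and 5 of mca4 (3), 1 for mmca minus mca4 over days 3 to 20 (0) and 5 for day 20 minus 5 of nrs1 (3). Quantile normalization and missing values at the floor gave 2 and 2 for 70 minus 30 Gy (4) and 1 and 1 late in rif (2). Quantile normalization gave 0 for mmca day 9 minus day 1 (1), and missing values at the floor 2 at days 3 and 5 of carbon mmca (4). Leaving out 1 array at a time reversed no member and gave 3 to 5 for day 42 minus 5 of scc7 (6), 3 to 4 for squamous minus mammary carcinomas (5), 1 to 3 and 2 to 4 at carbon days 3 and 5 of mca4 (3) and mmca (4), 2 to 4, 0 to 1 and 0 to 1 at gamma day 1 of mmca (4), nfsa (0) and rif (1), 2 to 5 at day 41 (5) and 1 to 4 for day 41 minus 25 (3) of mca4, 3 to 6 and 1 to 2 late in mmca (6) and rif (2), 0 to 2 for mmca day 9 minus day 1 (1) and 0 to 1 for rif minus nfsa (2).

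In carbon mca4 the replicate differences correlated at r over 0.1 for all 15 combinations, and within that tumour the block changed no call of a member. In carbon mmca they did so for 80%, with a median r of 0.288 against 0.223 in carbon mca4. The labels give replicate numbers only, so whether arrays were paired is not known. The block within each tumour and beam gave 3 called members for squamous minus mammary carcinomas (5), and the replicate block moved Pdgfrb to an adjusted p of 0.0518 between rif and nfsa and of 0.0527 for squamous minus mammary carcinomas. With it Zeb2 passed late in mca4 (adjusted p = 0.0471) and Vim for day 42 minus 5 of scc7 (adjusted p = 0.0495), in limma, and it changed no other call. The block within tumours also ended the calls of Zeb1 for squamous minus mammary carcinomas and late in mmca and of Twist1 between scc7 and nrs1 at gamma day 8 (adjusted p from 0.0563 to 0.092, limma).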
